A study of Mus musculus with 12 samples.

Results

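Lyz1 and Lyz2, the pair of mouse genes that encode lysozyme, were followed through 12 RNA sequencing libraries of mouse bone marrow carrying mutant SETBP1, mutant NRAS, both or neither. They were taken by symbol, as 2 of the 19910 genes in the count table, and were selected on their measured levels in these same libraries, so their levels and differences are given as a description and without a test. Lyz2 was one of the most abundant transcripts in marrow with empty vectors, higher with SETBP1 and lower in both groups that carried NRAS. Lyz1 differed in the same direction in each comparison, at a level several orders of magnitude lower, where a library held 1 to 70 counts.

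The marrow came from female C57BL/6J mice aged 6 to 10 weeks and was transduced with retrovirus, collected at 48 and 72 h from 293T17 packaging cells, a human kidney-derived line, that had received vector and EcoPac plasmids. Every group received 2 vectors: 2 empty ones (the group called empty), SETBP1 D868N with an empty one (SETBP1), NRAS G12D with an empty one (NRAS), or SETBP1 D868N with NRAS G12D (both), with 3 libraries in each. SETBP1 is a nuclear protein that binds DNA and NRAS a membrane GTPase that signals to the MAPK cascade. By its title, the study asked whether mutant SETBP1 strengthens the MAPK signal of mutant NRAS. The samples are named as murine leukemia cells from bone marrow, and every group was transduced with virus. No sorted cell type, promoter or count of mice is given. Replicates are numbered, without a statement that they came from separate mice or cultures, so the errors measure only the spread between these libraries, which may be technical.

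Lysozyme cuts the sugar backbone of peptidoglycan, the polymer that gives bacterial walls their strength, and the fragments are sensed by receptors such as NOD2. Mice carry a tandem duplication of the gene. Lyz2, also called lysozyme M, is the copy of macrophages, monocytes and granulocytes and has long served as a myeloid marker, while Lyz1, lysozyme P, is known from Paneth cells of the small intestine. In phagocytes the enzyme is stored in granules and lysosomes and is also secreted.

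Both genes lie on the minus strand of chromosome 10 (GRCm38, GENCODE M21). Lyz1 (ENSMUSG00000069515.6) spans chr10:117287797-117292868 and Lyz2 (ENSMUSG00000069516.8) spans chr10:117277331-117282321, with 5475 bases between them. Each has 4 exons and 444 coding bases, in transcripts of 1263 bases for Lyz1 and 1316 bases for Lyz2. The second exon, which is coding over its whole length, is printed here because it shows how little separates the copies: the 6 mismatches, in capitals, are what a read from this exon would have to cover to be assigned to one gene. The lines run 5′ to 3′ on the minus strand, Lyz1 from chr10:117291029-117291193 and Lyz2 from chr10:117280641-117280805.
Lyz1 exon 2: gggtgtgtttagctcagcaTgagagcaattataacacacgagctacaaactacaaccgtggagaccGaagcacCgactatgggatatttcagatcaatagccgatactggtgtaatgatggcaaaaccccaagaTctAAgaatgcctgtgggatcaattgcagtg
Lyz2 exon 2: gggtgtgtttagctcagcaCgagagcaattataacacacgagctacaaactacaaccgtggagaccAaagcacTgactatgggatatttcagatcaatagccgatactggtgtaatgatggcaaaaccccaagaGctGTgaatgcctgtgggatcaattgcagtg

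Over the whole transcripts, 1262 aligned base pairs were 96.0% identical, with 51 mismatches. The coding sequences differed at 22 of 444 bases. Exon 3, of 79 bases, was the same in both genes, exon 1 held 14 mismatches, and exon 4, which is mostly 3′ UTR, held 31. Of the 50-base windows of the Lyz1 transcript, 16.1% occurred exactly in the Lyz2 transcript, and 44.2% did so within 1 mismatch. At 100 bases these shares were 2.06% and 8.51%. The read length and the handling of reads that match several places are not given in the sources used here, so the share of reads that could have been counted to the other copy is unknown, and each value for Lyz1 is uncertain for that reason.

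**Figure D1:**
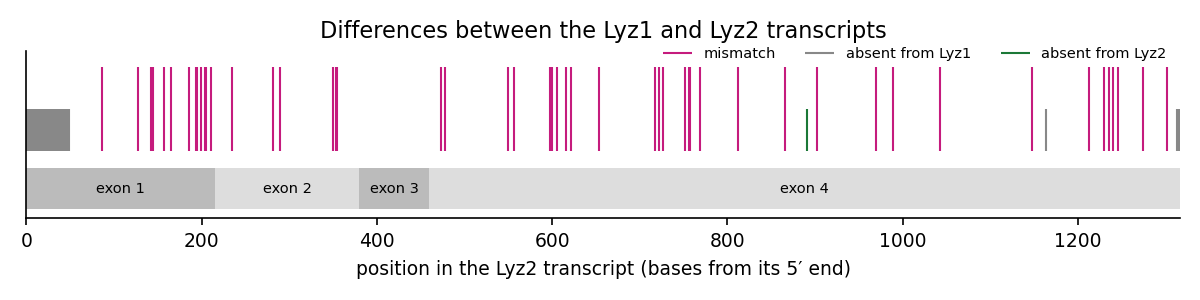
Positions at which the Lyz1 and Lyz2 transcripts differ. The x axis is the position in the 1316-base Lyz2 transcript in bases from its 5′ end, the lower bar shows its 4 exons, and the ticks are 51 mismatches and the stretches absent from one gene. Exon 3 has 0 mismatches.

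Upstream of the start sites the copies were less alike. Over the 250 bases before the start in RefSeq (GRCm38.p6), 80.6% of aligned bases were identical. The bases from -250 to -51 are shown because they carry all of that divergence, with capitals for bases that differ or have no partner in the alignment: Lyz1 from chr10:117292919-117293118 and Lyz2 from chr10:117282323-117282522, 5′ to 3′ on the minus strand.
Lyz1 upstream: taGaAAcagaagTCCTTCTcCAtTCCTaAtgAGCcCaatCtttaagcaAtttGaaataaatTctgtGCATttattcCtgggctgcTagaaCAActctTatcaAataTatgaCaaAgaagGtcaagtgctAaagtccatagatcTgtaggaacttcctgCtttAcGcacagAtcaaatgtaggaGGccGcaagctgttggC
Lyz2 upstream: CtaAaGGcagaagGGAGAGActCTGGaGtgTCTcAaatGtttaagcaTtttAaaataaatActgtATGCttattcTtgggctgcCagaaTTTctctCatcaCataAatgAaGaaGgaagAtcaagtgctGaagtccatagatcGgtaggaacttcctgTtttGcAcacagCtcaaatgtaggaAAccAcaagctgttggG

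The last 50 bases before the start were the same in both genes, within a shared run of 86 bases, and GENCODE places all but the first of them in the 5′ UTR of Lyz2. Motifs were searched on both strands of the 250 bases. TTGCNNAA, a pair of C/EBP-type ends, matched Lyz1 at -209 on the reverse strand and did not match Lyz2, beside 9.56% of 32851 mouse promoters of the same length. GAGGAA, a PU.1-type sequence, TATAAA and CAGCTG matched neither gene and were held by 23.3%, 12.4% and 13.0% of promoters. TAAATA matched both genes at -27 and Lyz2 also at -195, beside 12.7% of promoters. GGAACTTCC, whose ends are inverted repeats around a central base, lay at -103 in both and in 0.527% of promoters. It holds GGAA, the end of GAGGAA, which was not searched by itself. TAAATA and GGAACTTCC were chosen after the windows had been read and overlapped no other motif searched. A match is a description of letters, and no match says only that these letters are not in this window.

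Total counts per library ran from 7085894 to 8864919. SETBP1 replicate 3 stood apart, with 11835 genes detected against 12461 to 12800 in the other libraries, so values that rest on it are also given without it. Nras had 626 to 741 counts in libraries without the NRAS vector and 10517 to 13502 in those with it. Setbp1 had 0 counts in every empty and NRAS library, 7, 7 and 5 with SETBP1 and 13, 17 and 11 with both. Paneth cell markers (6 of 6) had 0 counts in every library.

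Lyz2 was counted 104382, 93351 and 73874 times in the 3 empty libraries, 117444, 125323 and 254358 times with SETBP1, 26956, 24657 and 22486 times with NRAS, and 28499, 26798 and 33000 times with both. Every SETBP1 library lay above every empty one, and every library with NRAS lay below every library without it. As a share of all counts Lyz2 made up 1.21%, 1.23% and 1.04% of the empty libraries, 1.48%, 1.71% and 2.87% with SETBP1, 0.349%, 0.327% and 0.280% with NRAS, and 0.382%, 0.334% and 0.422% with both. The counting error of such shares was small: the exact binomial 95% interval ran from 1.04% to 1.05% in empty replicate 3. Intervals here cover counting error only, since reads without molecular identifiers are not independent molecules.

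Ranked by counts scaled to a library of 1000000 (CPM) per kilobase of transcript, Lyz2 was the first of 19907 genes in all 6 empty and SETBP1 libraries. It ranked 8, 9 and 10 in the NRAS libraries and 7 in each library with both. On that scale its mean level was 8836 ± 794 (SD, n = 3) with empty vectors, 15338 ± 5667 with SETBP1, 2421 ± 270 with NRAS and 2881 ± 333 with both. Lyz2 therefore stayed among the 10 most abundant genes per length even where it was lowest. In bulk RNA, fewer Lyz2-expressing cells and less Lyz2 RNA per cell cannot be told apart.

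Lyz1 was counted 14, 24 and 13 times in the empty libraries, 29, 70 and 39 times with SETBP1, 9, 8 and 1 times with NRAS, and 9, 8 and 11 times with both. Its mean level in CPM per kilobase was 1.75 ± 0.660 (SD, n = 3), 4.64 ± 2.54, 0.620 ± 0.454 and 0.952 ± 0.162 in the same order of groups. The SETBP1 libraries again lay highest, all 3 above every other library, and NRAS replicate 3 lay lowest with its single count. For Lyz1 the counting error is as large as many of the gaps between libraries.

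**Figure D2:**
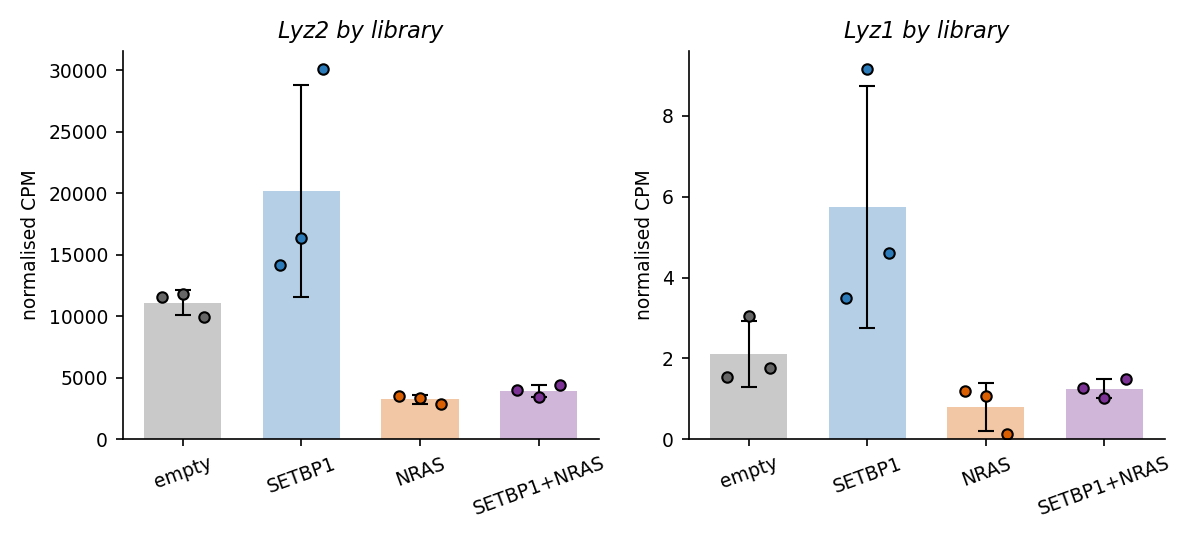
Lyz2 (left) and Lyz1 (right) by library in normalised CPM, on separate linear axes that start at 0. Points are libraries, bars are group means and error bars are SD (n = 3). The SETBP1 libraries are highest for both genes, and for Lyz2 SETBP1 replicate 3 stands at 30095 against 14143 and 16376 in the other SETBP1 libraries.

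For comparisons between groups, CPM were corrected with TMM factors (trimmed mean of M-values), called normalised CPM here, and log2 differences with standard errors (SE) came from 1 edgeR fit of all 12 libraries. Normalised Lyz2 was 11548, 11855 and 9969 CPM in the empty libraries and 14143, 16376 and 30095 CPM with SETBP1, with means of 11124 ± 1012 and 20205 ± 8637 (SD, n = 3). The difference was 0.86 on the log2 scale (SE 0.21), or 1.82-fold. SETBP1 replicate 3 set much of that size. Without it the SETBP1 mean was 15260 CPM and the log2 difference 0.46 (SE 0.10), with both remaining libraries still above all 3 empty ones.

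Normalised Lyz1 was 1.55, 3.05 and 1.75 CPM in the empty libraries and 3.49, 9.15 and 4.61 CPM with SETBP1. The groups did not overlap, and the log2 difference was 1.43 (SE 0.48). Unlike for Lyz2, it was SETBP1 replicate 2 that stood highest, and without that library the difference was 0.95. Without SETBP1 replicate 3 it was 1.57 (SE 0.46).

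With NRAS alone, Lyz2 was 3562, 3336 and 2850 normalised CPM, with a mean of 3249 ± 364 (SD, n = 3). This was 3.42-fold lower than with empty vectors, a log2 difference of -1.78 (SE 0.22), and the groups were far apart compared with the spread within them. Lyz1 was 1.19, 1.08 and 0.127 CPM, a log2 difference of -1.40 (SE 0.60), with every NRAS library below every empty one. Without NRAS replicate 3, the library with 1 count, the difference of Lyz1 was -0.89.

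With both mutants, Lyz2 was 3986, 3430 and 4440 normalised CPM, with a mean of 3952 ± 506 (SD, n = 3). Against empty vectors this was 2.81-fold lower (log2 difference -1.49, SE 0.22). Against SETBP1 alone it was 5.11-fold lower (log2 difference -2.35, SE 0.22), and -1.95 without SETBP1 replicate 3. These comparisons share libraries with those above, so the values are set side by side and are not independent of them. Lyz1 was 1.26, 1.02 and 1.48 CPM with both, a log2 difference of -0.74 (SE 0.56) from empty and -2.18 (SE 0.52) from SETBP1. Both genes lay below every empty and every SETBP1 library in each of the 3 libraries with both mutants. For Lyz1 the gap to the empty group was narrow, at 1.48 against 1.55 CPM, or 11 against 14 counts. The share of all genes whose libraries separate in such ways was not counted, here or in the comparisons above. By the test over all genes, 40.6% passed in both against empty and 42.4% in both against SETBP1.

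Adding SETBP1 to NRAS left both genes within overlapping ranges. Between both and NRAS, Lyz2 differed by 0.28 (SE 0.21) and Lyz1 by 0.65 (SE 0.64) on the log2 scale. The lowest library with both, at 3430 CPM of Lyz2, lay below the highest NRAS library at 3562 CPM. The size of the Lyz1 difference rested on NRAS replicate 3, since it was 0.14 without that library. The order of group means of both genes was SETBP1, empty, both, NRAS, and the last 2 were the only neighbours in that order whose libraries overlapped.

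The interaction, which is the log2 change with SETBP1 in the presence of NRAS minus that in its absence, was -0.58 (SE 0.30) for Lyz2 and -0.78 (SE 0.82) for Lyz1. For Lyz2 it was -0.17 without SETBP1 replicate 3, so its size came largely from that library. For Lyz1 the lowest value was -1.30, with NRAS replicate 3 left out, and the highest -0.30, with SETBP1 replicate 2 left out. With counts of the copies summed as 1 gene, all 6 differences matched those of Lyz2 to 2 decimals, since Lyz1 added so few counts.

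**Figure D3:**
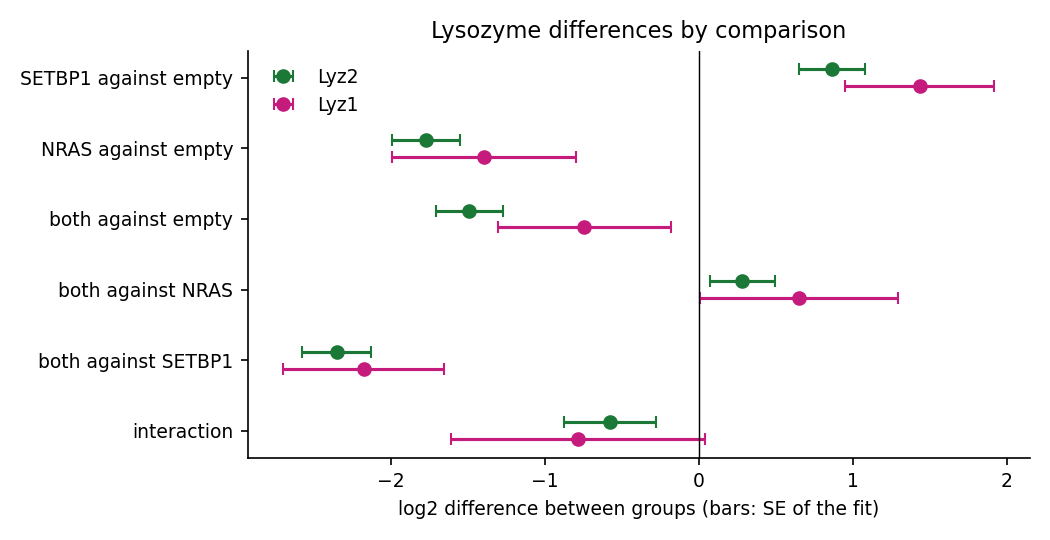
Log2 differences of Lyz2 and Lyz1 in the 6 comparisons. The x axis is the log2 difference between groups, points are estimates from the fit across all genes and bars are 1 SE. Both genes lie above 0 for SETBP1 against empty, at 0.86 and 1.43, and below 0 in each comparison of a group with NRAS against one without it.

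Lyz1 made up only a small share of the counts of the copies together. Summed over libraries the share was 0.0188% with empty vectors (exact binomial 95% interval 0.0140% to 0.0247%), 0.0278% with SETBP1 (0.0233% to 0.0328%), 0.0243% with NRAS (0.0144% to 0.0384%) and 0.0317% with both (0.0211% to 0.0458%). Within the SETBP1 group the libraries ran from 0.0153% in replicate 3 to 0.0558% in replicate 2, a wider spread than that between any of the group means. The lowest share of all was 0.00445%, in NRAS replicate 3, where Lyz2 had 22486 counts per Lyz1 count. Over the 12 libraries log2 CPM of Lyz1 and Lyz2 had a Pearson's r of 0.81 and a Spearman's rho of 0.98, given as a description because libraries of 1 group share their treatment and the genes share sequence. Whether the Lyz1 counts are Lyz1 transcripts or Lyz2 reads counted to the neighbouring copy was not tested.

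**Figure D4:**
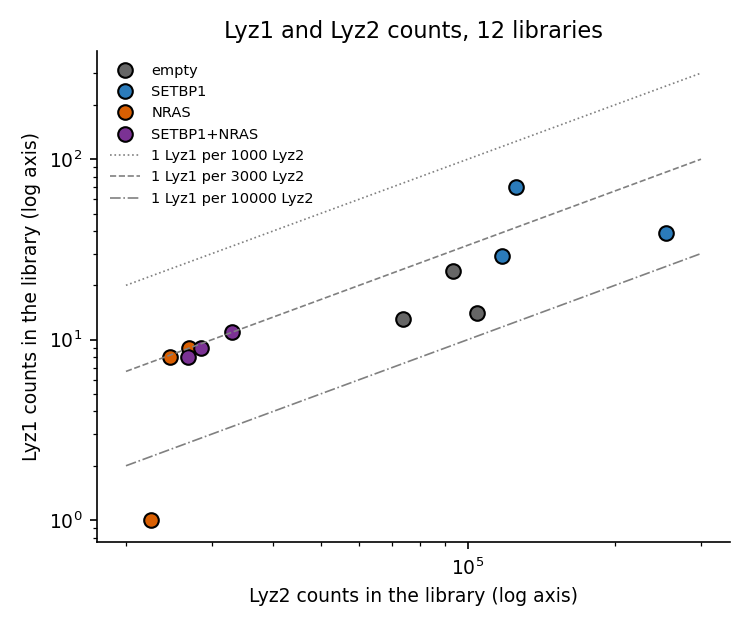
Lyz1 counts against Lyz2 counts, both on log axes, with 1 point for each of the 12 libraries. The dashed and dotted lines mark fixed ratios of the copies. Lyz1 runs from 1 to 70 counts and Lyz2 from 22486 to 254358, and NRAS replicate 3 lies farthest below the others.

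Relatives of the lysozymes were nearly silent. Of 8 listed members of the c-type and g-type families, 0 passed the filter on low counts. Lyzl4, a lysozyme-like protein known from the testis, had 0 counts in every empty and SETBP1 library, 2, 4 and 2 counts with NRAS and 4, 12 and 8 counts with both. Lalba, the milk protein that shares the lysozyme fold, had 0 to 2 counts per library, and Lyzl1, Lyzl6, Spaca3, Spaca5, Lyg1 and Lyg2 had 0 in all. Lyz2 was thus the source of nearly all lysozyme family counts.

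The genes whose log2 CPM followed Lyz2 most closely over the 12 libraries, out of 9072 with a mean of at least 50 counts, were Gm21188 (Pearson's r 0.99), Unc93b1 (0.99), Cst3 (0.99), Hexa (0.99) and F10 (0.99). Unc93b1 carries Toll-like receptors to endosomes, Cst3 is a secreted inhibitor of cysteine proteases, Hexa is a lysosomal hexosaminidase subunit, and F10 is a coagulation factor. Cst3 shared the high SETBP1 replicate 3, at 856 normalised CPM against 492 and 563 in the other SETBP1 libraries, 450 to 543 with empty vectors, 226 to 262 with NRAS and 236 to 265 with both. Hexa had a narrower span, from 337 CPM in an NRAS library to 635 CPM in SETBP1 replicate 3. Those most like Lyz1 were Supt4a (0.97), Mrpl33 (0.95), AI837181 (0.94), Chchd7 (0.94) and Phpt1 (0.94). The lysozymes themselves were left out of both rankings. By Spearman's rho Supt4a was less like Lyz1 (0.84) than Lyz2 was (0.98). The few counts of Lyz1 make its coefficients imprecise. The libraries share treatment within a group, so the coefficients are descriptions of likeness only.

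Genes that work beside lysozyme were then counted in the same fit, by edgeR's quasi-likelihood test with Benjamini-Hochberg adjustment over all 10993 genes tested and a threshold of 0.05. In SETBP1 against empty, 14.9% of all genes passed. Of 13 antibacterial proteins of phagocytes tested, 1 rose and 7 fell, with a median log2 difference of -0.58 against -0.01 over all genes, while Lyz2 stood at 0.86. Slc11a1, the phagosomal metal transporter, rose by 1.84 (SE 0.21, adjusted p 5.32e-04). Ltf, the iron-binding lactoferrin of secondary granules, fell by 1.13 (SE 0.16, adjusted p 0.00167), and Pglyrp1, a peptidoglycan recognition protein, fell by 0.97 (SE 0.12, adjusted p 8.28e-04). With only these 6 libraries in the fit, 4 members passed instead of 8, while calls over all genes fell from 1633 to 110.

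In NRAS against empty, 32.5% of all genes passed, and 12 of the 13 antibacterial genes fell, with a median of -1.35 beside the -1.78 of Lyz2. Camp, the cathelicidin precursor, fell by 2.27 (SE 0.16, adjusted p 2.58e-07, edgeR quasi-likelihood, Benjamini-Hochberg), from 294 ± 2.84 to 61.1 ± 15.9 normalised CPM (SD, n = 3). Ltf fell by 2.03, Ngp, a neutrophil granule protein, by 1.95 and Chil3, a chitinase-like lectin, by 1.80. In both against empty, where 40.6% of genes passed, 1 rose and 11 fell, with a median of -2.30. Lyz2, at -1.49, lay nearer 0 than that median, while Camp fell by 4.39, Ltf fell by 4.28 and Ngp fell by 4.04.

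In both against NRAS, Lyz2 and the median of this list differed in sign. Of all genes 1.91% passed, and 9 of the 13 antibacterial genes fell and 1 rose, with a median of -0.83 beside the 0.28 of Lyz2, a contrast that was not itself tested. Ltf fell by 2.25 (SE 0.17, adjusted p 3.19e-05, edgeR quasi-likelihood, Benjamini-Hochberg), Camp by 2.13, Ngp by 2.09 and Pglyrp1 by 1.73. In both against SETBP1, 42.4% of genes passed and 12 fell, with a median of -1.75. In the interaction 0.0455% of genes passed, and 1 of the 13, Camp, was lower at -1.55 (SE 0.24, adjusted p 0.0424). The number of the 13 was 6 with DESeq2, 6 without SETBP1 replicate 3, 2 without SETBP1 replicate 1 or NRAS replicate 3, and 0 without 1 empty library, 1 SETBP1+NRAS library or NRAS replicate 2.

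Lysosomal enzymes of myeloid cells, listed with other lysosomal proteins such as Lamp1 and Cd68, belong to the compartment in which much lysozyme is stored. Of 17 tested in SETBP1 against empty, 8 rose and 0 fell (14.9% of all genes passed), with a median of 0.29 beside the 0.86 of Lyz2. Ctss, a protease of antigen processing, rose by 1.25 (SE 0.22, adjusted p 0.00402, edgeR quasi-likelihood, Benjamini-Hochberg) and Ctsb, another cysteine cathepsin, by 0.96. Without empty replicate 1, 3 members passed, without empty replicate 3 also 3, and with only the 6 libraries in the fit 0. Calls over all genes fell in the same fits, from 1633 to 494, 390 and 110. In NRAS against empty 2 rose and 5 fell, with a median of -0.21, a share near the 32.5% of all genes. Without SETBP1 replicate 3, 13 passed in all, while calls over all genes rose from 3576 to 5224. Ctsl, a cathepsin of broad specificity, rose by 2.04 (SE 0.18, adjusted p 1.69e-06) and Psap, the saposin precursor, fell by 1.33 (SE 0.25, adjusted p 0.00122), so called members went both ways where Lyz2 was lower. Psap varied widely within the NRAS group, from 921 to 2553 normalised CPM, against 4704 to 5116 with empty vectors, so the size of its fall is uncertain. In both against empty 5 rose and 5 fell (40.6% of all genes).

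In both against NRAS 0 of the 17 lysosomal genes passed with edgeR, beside 8 at an unadjusted p under 0.05, and 3 passed with DESeq2. The count was 11 without SETBP1 replicate 3 or with only the 6 libraries in the fit, where calls over all genes rose from 210 to 836 and 883, and the median was 0.26 beside the 0.28 of Lyz2. In both against SETBP1 1 rose and 9 fell, beside 42.4% of all genes, with a median of -0.31. The count was 6 without SETBP1+NRAS replicate 1 or replicate 3. It was also 6 with only the 6 libraries in the fit, where calls over all genes fell from 4661 to 3083. Ctss fell by 1.57 (SE 0.22, adjusted p 6.94e-05) and Ctsl rose by 1.90 in that comparison.

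**Figure D5:**
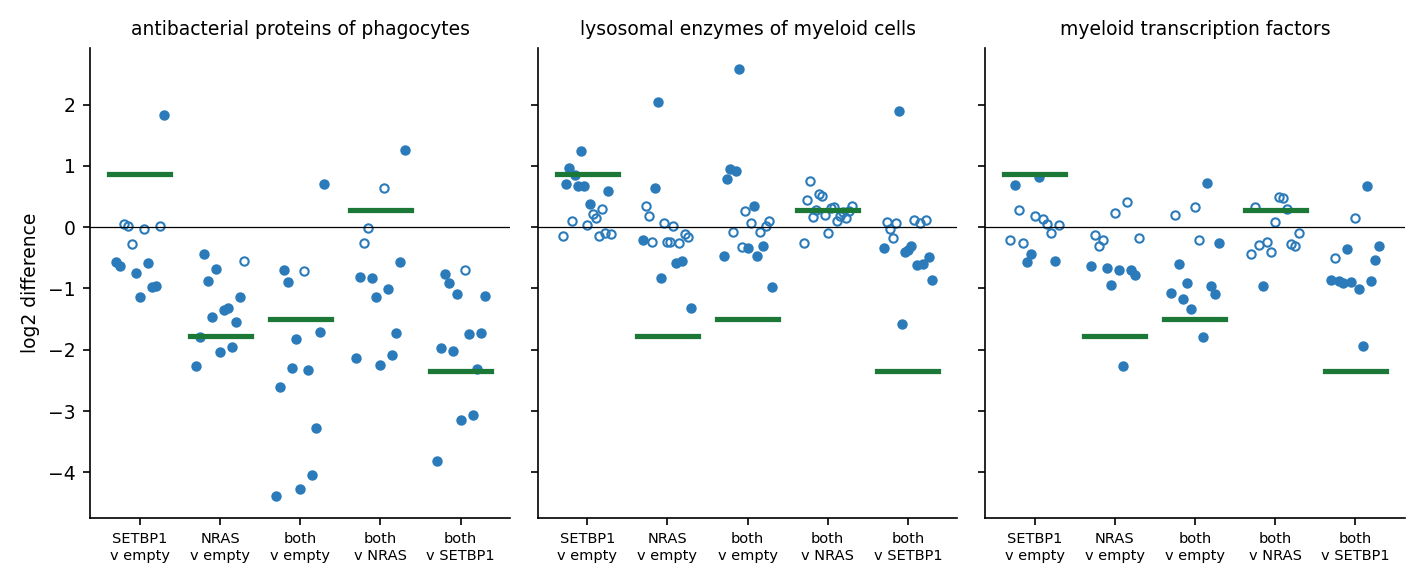
Log2 differences of list members in 5 comparisons, with 1 circle per gene, filled where the gene was past the threshold (edgeR quasi-likelihood, Benjamini-Hochberg adjusted p under 0.05). Green bars mark Lyz2. For both against NRAS the antibacterial genes have a median of -0.83 and Lyz2 stands at 0.28, while the list of lysosomal enzymes and other lysosomal proteins has a median of 0.26.

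Factors that drive myeloid genes, lysozyme among them, were examined next. Spi1, which encodes PU.1, did not pass in SETBP1 or NRAS against empty (log2 differences 0.04 and -0.17, adjusted p 0.808 and 0.170, edgeR quasi-likelihood, Benjamini-Hochberg). By the same test it passed as lower in both against empty and in both against SETBP1. The first of these calls was lost with the replicate number as a block (-0.27, adjusted p 0.0554). It was also lost without empty replicate 1 or 2 or any 1 SETBP1+NRAS library (adjusted p up to 0.101). The second was lost without SETBP1+NRAS replicate 2 (-0.28, adjusted p 0.0643) and with only the groups compared (-0.32, adjusted p 0.0690). Cebpa, the granulocyte and monocyte factor C/EBPα, fell by 0.63 in NRAS against empty (SE 0.11, adjusted p 5.33e-04) and by 0.86 in both against SETBP1, and stood at -0.21 in SETBP1 against empty, where it did not pass. Irf8, a monocyte factor, rose by 0.81 with SETBP1 (SE 0.15, adjusted p 0.00628) and fell by 0.69 with NRAS (SE 0.16, adjusted p 0.00376), the same directions as Lyz2. Klf4, another monocyte factor, fell by 2.27 with NRAS (SE 0.35, adjusted p 2.26e-04) and stood at 0.14 with SETBP1, where it did not pass. Cebpe, a factor of late granule genes, fell by 1.17 in both against empty (SE 0.20, adjusted p 3.62e-04) and stood at -0.26 and -0.20 with SETBP1 and NRAS alone, neither past the threshold.

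Cebpb rose by 0.69 with SETBP1 at an adjusted p of 0.0432 (edgeR quasi-likelihood, Benjamini-Hochberg), a call that did not hold without SETBP1 replicate 3 (0.34, adjusted p 0.0764) and ranged up to an adjusted p of 0.164 without 1 other library, empty replicate 3. Over the whole list of 13 factors, 2 rose and 3 fell with SETBP1, 0 rose and 7 fell with NRAS, 1 rose and 9 fell with both against empty, 0 rose and 1 fell with both against NRAS, and 1 rose and 10 fell with both against SETBP1. The shares of all genes that passed were 14.9%, 32.5%, 40.6%, 1.91% and 42.4% in the same order. The first count was 3 without empty replicate 1, 3 without empty replicate 2, 2 without empty replicate 3 and 0 with only the 6 libraries in the fit. Calls over all genes fell in the same fits, from 1633 to 494, 1088, 390 and 110. The second count was 11 without SETBP1 replicate 3, a fit in which calls over all genes rose from 3576 to 5224. The single call between both and NRAS was Cebpe (log2 difference -0.96, adjusted p 0.0243). The number there was 6 without SETBP1 replicate 3 or with only the 6 libraries in the fit, and 0 when any 1 of the 6 libraries compared was left out. Calls over all genes rose from 210 to 836 and 883 in the former fits and fell to between 93 and 139 in the latter.

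Genes that sense the peptidoglycan fragments were the last pathway list, with 10 of 13 tested. In SETBP1 against empty 2 rose and 1 fell, in NRAS against empty 3 rose and 4 fell, and in both against empty 3 rose and 3 fell, beside 14.9%, 32.5% and 40.6% of all genes. With only the 6 libraries in the fit, 1 passed in SETBP1 against empty, where calls over all genes fell from 1633 to 110. Slc15a3, a lysosomal transporter of bacterial peptides, rose by 1.15 with SETBP1 (SE 0.21, adjusted p 0.00521, edgeR quasi-likelihood, Benjamini-Hochberg), by 1.74 with NRAS and by 2.65 with both. Tlr2, a receptor for bacterial lipoproteins, fell by 1.63 with NRAS (SE 0.18, adjusted p 1.41e-05). Between both and NRAS 1 rose and 1 fell, Slc15a3 and Pglyrp1, beside 1.91% of all genes. Pglyrp1 is also a member of the antibacterial list. Slc15a3 no longer passed when 1 NRAS library, SETBP1+NRAS replicate 1 or SETBP1+NRAS replicate 3 was left out (adjusted p up to 0.143). Between both and SETBP1 3 rose and 3 fell, beside 42.4% of all genes.

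Cell type markers also differed between groups, not always in the order of Lyz2, and their part in the lysozyme levels was not tested. All 12 monocyte and macrophage markers were tested. Their summed level ran from 5329 to 5715 normalised CPM with empty vectors, 5849 to 7818 with SETBP1, 5418 to 5726 with NRAS and 5548 to 6086 with both, so the groups with NRAS overlapped the empty group where Lyz2 did not. Ly6c2 was the largest part of that sum, with means of 3250, 3533, 2865 and 2198 CPM in the same order of groups. The sum therefore says little about the less abundant markers. With SETBP1 5 rose and 1 fell, with NRAS 3 rose and 4 fell, and between both and NRAS 4 rose and 1 fell, beside 14.9%, 32.5% and 1.91% of all genes. The first count was 3 in all without empty replicate 3 and 1 with only the 6 libraries in the fit (390 and 110 over all genes, from 1633). The second was 11 in all without SETBP1 replicate 3 (5224 over all genes, from 3576). The last was 0 if NRAS replicate 2 was left out and 8 if SETBP1 replicate 3 was (102 and 836 over all genes, from 210). Cd14, the lipopolysaccharide co-receptor, rose by 1.56 with SETBP1 and 3.44 with NRAS, while Adgre1, which encodes F4/80, fell by 1.14 with NRAS (SE 0.18, adjusted p 3.08e-04, edgeR quasi-likelihood, Benjamini-Hochberg).

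Late neutrophil markers, of which 11 were tested, summed to 11299 to 12768 normalised CPM with empty vectors, 5235 to 7443 with SETBP1, 5930 to 7586 with NRAS and 2036 to 2541 with both. This order differed from that of Lyz2, which was highest with SETBP1. Ltf, Camp, Lcn2 and Ngp are also members of the antibacterial list, as are the progenitor markers Mpo, Elane, Prtn3 and Ctsg. The counts of these lists are therefore not separate from each other. With SETBP1 0 rose and 8 fell, with NRAS 2 rose and 6 fell, and between both and NRAS 0 rose and 8 fell, beside 14.9%, 32.5% and 1.91% of all genes. With only the 6 libraries in the fit, 4 passed in SETBP1 against empty, where calls over all genes fell from 1633 to 110. Retnlg, a late neutrophil cytokine-like gene, fell by 2.40 with SETBP1 and by 2.71 between both and NRAS. Myeloid progenitor markers, 8 tested, summed to 24753 to 27388, 18307 to 20191, 10163 to 11677 and 6025 to 6601 normalised CPM in the 4 groups, and mast cell and basophil markers, 7 tested, to 1194 to 1217, 642 to 818, 311 to 529 and 178 to 236. Among other lineages Hba-a1 and Hbb-bs had 0 counts in every library, as had the B-cell gene Pax5.

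On the chromosome, the 3 nearest listed genes on each side were Frs2, Yeats4 and 9530003J23Rik to the left of the pair and Cpsf6, Cpm and Mdm2 to the right. Frs2, an adaptor of growth factor receptors, had 140, 122 and 142 counts with empty vectors, 165, 137 and 85 with SETBP1, 76, 102 and 96 with NRAS and 67, 91 and 74 with both, and so was lower on average in the groups with NRAS, as Lyz2 was. It passed in both against empty (log2 difference -0.69, adjusted p 0.0292) and in both against SETBP1 (-0.62, adjusted p 0.0456). It did not pass in NRAS against empty (-0.48, adjusted p 0.133; edgeR quasi-likelihood, Benjamini-Hochberg). The former call was lost without replicate 3 of the empty group, and without replicate 1 or 3 of the group with both mutants. The call against SETBP1 held without SETBP1 replicate 3 but was lost when any other library was left out (adjusted p up to 0.153). Limma-voom, a replicate block, only the groups compared or no low-count filter also lost it. Mdm2, the ubiquitin ligase that restrains p53, had 982 to 1119 counts with empty vectors and 1999 to 2253 with NRAS and rose by 1.09 (SE 0.07, adjusted p 1.30e-07, edgeR quasi-likelihood, Benjamini-Hochberg) where Lyz2 was lower. Cpsf6 had means of 210, 182, 250 and 254 normalised CPM with empty vectors, SETBP1, NRAS and both, and Cpm 0.251, 0, 1.06 and 1.42. Yeats4, a chromatin reader subunit, did not pass in any comparison, with log2 differences between -0.08 and 0.13. Of 5 neighbours tested, 2 rose and 0 fell in NRAS against empty, beside 32.5% of all genes. In both against empty and in both against SETBP1, 3 rose and 1 fell, beside 40.6% and 42.4%. The 1 that fell was Frs2. Cpm, 1 of the 3 that rose, had at most 16 counts in any library and 0 in every SETBP1 library. Its call in both against empty was lost with limma-voom and when any 1 empty library was left out. Leaving out replicate 1 or 2 of the group with both mutants also lost it (edgeR adjusted p up to 0.116). The gene nearest on the left, 9530003J23Rik, which the RefSeq table also lists as Lyzf1, had 0 counts in every library.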

How the data were processed

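The authors deposited 1 table of whole-number read counts per gene for 19910 gene symbols in 12 libraries, not normalised; 5080 genes had 0 counts in every library. Per the labels' protocols, RNA was purified on micro columns and amplified by a SMART-Seq method for ultra-low input. Per the submitters' processing notes, STAR, DESeq2 and the build mm10 were used. The counting tool, annotation, strand setting and treatment of multimapping reads are not given in the sources used here, so reads of close copies such as Lyz1 and Lyz2 may have been shared or lost.

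From the deposited counts, log2 differences came from edgeR 4.0.16 under R 4.3.3 (TMM scaling, filterByExpr with min.count 10 and min.total.count 15, quasi-likelihood fit of 4 group means to all 12 libraries). This left 10993 genes holding 99.9% of the counts. The SE was the absolute log2 difference over the square root of F. Tests were two-sided, with Benjamini-Hochberg adjustment over all genes tested in each of 6 comparisons. Lyz1 and Lyz2 received no test. Lists were counted with no set test, and per list and comparison up to 4 members past the threshold with the largest difference and a mean count of at least 50 could be named, with 6 transcription factors, the 3 nearest genes on each side and the 5 genes most like each lysozyme in any case. The members, lists and rules were chosen with earlier results of these data known. The steps were tested on simulated data. DESeq2 1.42.0, limma-voom (limma 3.58.1), other scalings and filters, the replicate number as a block, only the groups compared and the fit without each library in turn were the alternatives. Replicates differed beyond sampling noise in every pair (chi-square per gene 2.69 to 39.2) and were counted separately. Transcripts were compared by global alignment of the longest GENCODE M21 transcript of each gene, and upstream windows came from RefSeq (GRCm38.p6), where both genes matched by symbol.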

Additional observations from a re-analysis of the deposited data

Results flagged for a closer look

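Camp, the cathelicidin precursor, was, in the fit of all 12 libraries with edgeR, the one member of the lists counted whose change with SETBP1 differed between cells with and without NRAS by the test of the difference itself (interaction -1.55 on the log2 scale, SE 0.24, edgeR quasi-likelihood with Benjamini-Hochberg adjusted p 0.0424). Its mean was 294 ± 2.84 normalised CPM with empty vectors, 197 ± 38.6 with SETBP1, 61.1 ± 15.9 with NRAS and 14.0 ± 1.62 with both (SD, n = 3). The call was lost whenever 1 empty library, 1 SETBP1+NRAS library or NRAS replicate 2 was left out (adjusted p 0.0791 to 0.194), and also with limma-voom (0.164) or library size scaling (0.0673), while its size stayed between -1.63 and -1.46 in those fits. Other members passed elsewhere: with DESeq2 6 antibacterial genes, 3 late neutrophil, 2 monocyte and macrophage and 2 progenitor markers were past the threshold, and without SETBP1 replicate 3 these numbers were 6, 5, 2 and 2, beside 93 and 110 over all genes. The lists share genes, so these numbers are not counts of separate genes. Ltf, Camp, Lcn2 and Ngp are in the antibacterial and late neutrophil lists, and Mpo, Elane, Prtn3 and Ctsg in the antibacterial and progenitor lists.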

How the results depend on the processing

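No difference of Lyz1, Lyz2 or their sum changed direction in any fit, and those of Lyz2 without 1 library ran from 0.46 to 1.07 for SETBP1 against empty, -2.57 to -1.95 for both against SETBP1 and -0.79 to -0.17 for the interaction, with the same values for the sum; in each case SETBP1 replicate 3 set the end nearest 0. Lyz1 between both and NRAS has no value with only the groups compared, where it fell under the count filter. Genes past the threshold without 1 library numbered 390 to 3191 for SETBP1 against empty (main value 1633), 93 to 836 for both against NRAS (210) and 1 to 110 for the interaction (5). With only the groups compared they numbered 110, 883 for both against NRAS and 3083 for both against SETBP1 (4661). DESeq2 gave 379 for both against NRAS and 93 for the interaction, limma-voom 3 and no low-count filter 14 for the interaction; the cause was not tested. Scaling by library size alone put the all-gene median at -0.10 for NRAS against empty and at -0.13 for both against empty, and the numbers higher and lower were 1379 and 2265 (1868 and 1708 with TMM) and 1656 and 2908 (2282 and 2180). For both against SETBP1 they were 1720 and 2888 (2293 and 2368) and for the interaction 3 and 4 (1 and 4). With only the groups compared, the calls named for SETBP1 against empty held for Slc11a1, Ltf and Pglyrp1 and not for Ctss, Ctsb, Irf8, Cebpb, Slc15a3, Cd14 and Retnlg. Of 150 named calls, 0 reversed in any fit, and of 2998 refits 138 were no longer past the threshold. Replicate numbers did not pair the libraries (0 of 18 same-numbered pairs correlated above 0.1, and 2 of 12 libraries correlated best with their own number). With the replicate number as a block, Lyz2 differed by 0.82 for SETBP1 against empty and -1.77 for NRAS against empty, and 5 of the 150 named calls were lost. The few counts of Lyz1 limit its precision, whereas for Lyz2 the spread between libraries does.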

Other observations

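Other marker lists gave the following counts. Of 7 mast cell and basophil markers, 0 rose and 5 fell with SETBP1, 0 rose and 7 fell with NRAS, and 0 rose and 2 fell between both and NRAS, beside 14.9%, 32.5% and 1.91% of all genes. The first count was 3 without empty replicate 1 or 3, the second 4 without empty replicate 2, and the last 5 without SETBP1 replicate 1 or 3 and 4 without NRAS replicate 1. Over all genes, calls with SETBP1 fell from 1633 to 494 and 390 without empty replicate 1 and 3. Those between both and NRAS were 836 without SETBP1 replicate 3 and 139 without NRAS replicate 1, from 210. Fcer1a, the alpha chain of the IgE receptor, fell by 1.15 with SETBP1 and by 3.36 with NRAS (adjusted p 0.00303 and 7.12e-08 by edgeR's quasi-likelihood test with Benjamini-Hochberg adjustment). Of 8 myeloid progenitor markers, 1 rose and 6 fell with NRAS, beside 32.5% of all genes: Mpo, the myeloperoxidase of primary granules, fell by 1.33, and Cd34, a progenitor surface protein, rose by 1.17. Cd79b, the 1 B-lineage marker tested, fell by 0.75 with NRAS and by 1.35 with both against empty. Klf1, an erythroid factor and the 1 erythroid marker tested, fell by 3.32 with both against empty, and 0 T-lineage markers passed the count filter.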
